A study of Caenorhabditis elegans with 8 samples.

Results

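The 10 genes described here encode enzymes of glycolysis and gluconeogenesis in the nematode Caenorhabditis elegans. They are the aldolase genes aldo-1 and aldo-2, the glyceraldehyde-3-phosphate dehydrogenase genes gpd-1, gpd-2, gpd-3 and gpd-4, the enolase gene enol-1, the pyruvate kinase gene pyk-1, the lactate dehydrogenase gene ldh-1 and the phosphoenolpyruvate carboxykinase gene pck-2. They were picked by name for the enzymes they encode, and all 10 were among the 14541 genes measured. RNA of whole animals was sequenced from wild-type N2 and from pals-17(*) mutants (allele syb3980, strain ERT994), which have stop codons engineered near the start of pals-17. There were 4 libraries of each strain. N2 animals were collected after 48 h of growth from the L1 larval stage and pals-17(*) animals after 72 h, both at 20 °C on the same bacterial food. The mutants grow slowly and out of step with each other, so that a mutant population close to the L4 stage on average also holds older and younger animals. Genotype, hours of growth and mix of stages differ together between the strains and cannot be told apart. In whole animals, fewer cells of a type and less RNA per cell cannot be told apart either.

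Glycolysis splits glucose into pyruvate and yields ATP and NADH. Gluconeogenesis runs most of the same steps backward to build sugar, and enters them from oxaloacetate through phosphoenolpyruvate carboxykinase. Nematodes also have a glyoxylate cycle, which lets them make sugar from stored fat. Several steps in C. elegans are served by more than one gene, and glyceraldehyde-3-phosphate dehydrogenase (GAPDH) is the textbook case: gpd-2 and gpd-3 lie side by side on chromosome X and give the major form of larvae and adults, whereas gpd-1 and gpd-4 lie on chromosome II and give a minor form known from embryos.

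The libraries held 17871320 to 23378799 recovered reads in N2 and 18629170 to 21891721 in pals-17(*). Levels are given as CPM, the recovered reads divided by the library size that the deposited values imply, and fold changes are log2 ratios of pals-17(*) over N2 with their standard error. The scaled sizes were 0.793 to 0.822 times the read totals in N2 and 1.203 to 1.26 times in pals-17(*), so the scaling itself separates the strains. pals-17 was lower in the mutants, at 4.37 ± 0.224 CPM against 16.03 ± 2.22 (SD, n = 4). The strains differed across most of the table: 83.7% of all genes had an adjusted p-value under 0.05 (limma on the log2 values, Benjamini-Hochberg adjustment), 42.5% higher and 41.2% lower in the mutants. Among the 2574 genes with a mean log2 value above 6, a limit chosen after the data were seen, 17.6% were higher and 68.8% lower, and their median fold change was -0.62 on the log2 scale.

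With the deposited scaling, 2 of the 10 genes rose and 8 fell in pals-17(*), beside the 42.5% and 41.2% of all genes given above, and 3 of the 8 (pyk-1, aldo-1 and ldh-1) turned direction under other scalings. All 8 that fell have a mean log2 value above 6, where 68.8% of genes were lower. gpd-1 and gpd-4 rose about as much as each other, 10.7-fold and 10.3-fold. The largest falls were those of gpd-2, pck-2, aldo-2 and enol-1, each by more than 1 on the log2 scale with the deposited scaling, against 20% of all genes and 33.2% of those with a mean log2 value above 6. No gene of the 10 fell by more than 2, as 7.48% of all genes did, whereas gpd-1 and gpd-4 are among the 29.3% that rose by more than 1 and the 20.6% that rose by more than 2. The 4 N2 and 4 pals-17(*) values did not overlap for any of the 10 genes, which was so for 80.2% of all genes, 41.2% with the mutants higher and 39% with the mutants lower. With 8 libraries the exact 2-sided permutation test gave p = 0.0286 for each gene, the smallest value that its 70 relabellings allow. The 10 genes together took 0.607 ± 0.00923% of all reads in N2 and 0.436 ± 0.0121% in pals-17(*) (SD, n = 4). Such a share amounts to scaling each library to its read total. With the deposited scaling their summed CPM was 7458 ± 165 in N2 and 3548 ± 166 in pals-17(*), a wider difference.

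**Figure D1:**
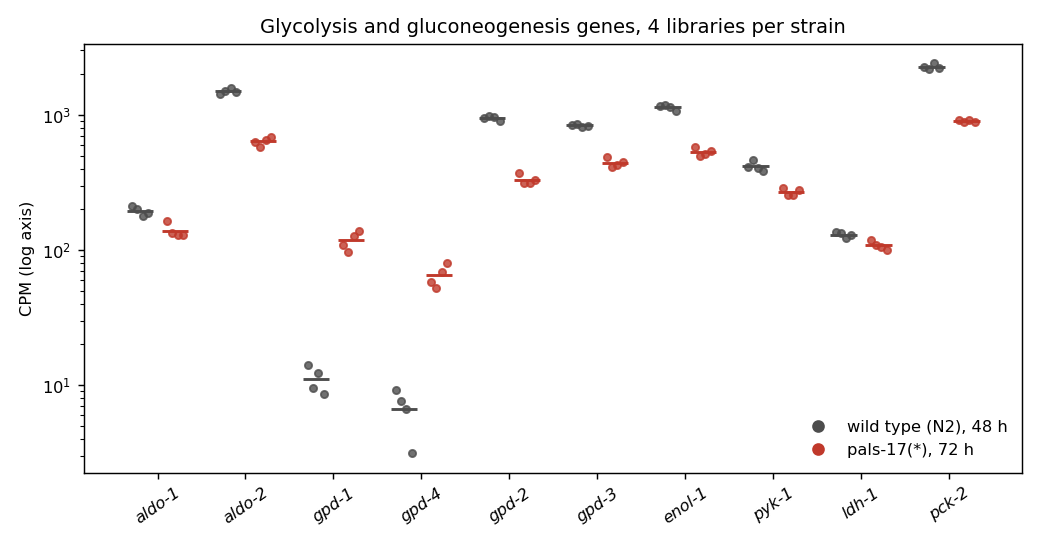
CPM of the 10 genes (log axis) in each of the 4 N2 libraries (grey, 48 h) and 4 pals-17(*) libraries (red, 72 h). Points are libraries and bars are means. gpd-1 and gpd-4 stand at 3.13 to 13.97 CPM in N2 and at 52.7 to 138 CPM in the mutants, and each of the other 8 genes is lower in the mutants.

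Aldolase cuts fructose-1,6-bisphosphate into the triose phosphates, and joins them again in gluconeogenesis. aldo-2 (chromosome III, 5874673 to 5876625, reverse strand, WBcel235) was read at 1440, 1504, 1575 and 1473 CPM in N2 replicates 1 to 4. In pals-17(*) replicates 1 to 4 it was read at 631, 581, 655 and 685 CPM. Every mutant library was far below every N2 library. The log2 fold change of aldo-2 was -1.23 ± 0.067 (SE; adjusted p = 7.73e-08, limma), a 2.35-fold fall, and it was -0.64 with libraries scaled to read totals and -0.36 after quantile normalization. aldo-1 (chromosome III, 13563346 to 13564937, reverse strand) was read at 212, 202, 178 and 188 CPM in N2 and at 163, 134, 128 and 128 CPM in pals-17(*). The mutant library of replicate 1 came close to the lowest N2 library, and the groups were still apart. Its fold change was -0.50 ± 0.091 (adjusted p = 0.000503), but with each library scaled to its read total it was 0.10 (adjusted p = 0.334). Within a library, which no such scaling touches, aldo-2 had 6.78 to 8.84 reads for each read of aldo-1 in N2 and 3.86 to 5.34 in pals-17(*). aldo-1 thus held 11.5 ± 1.13% of the aldolase reads in N2 and 17.9 ± 2.21% in the mutants (SD, n = 4), with no overlap.

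GAPDH oxidises glyceraldehyde-3-phosphate and passes the electrons to NAD. gpd-2 (chromosome X, 3113443 to 3114689, reverse strand) was read at 949, 980, 965 and 907 CPM in N2 and at 372, 312, 312 and 332 CPM in pals-17(*). gpd-3, its neighbour (chromosome X, 3112091 to 3113341, reverse strand), was read at 844, 856, 817 and 834 CPM in N2 and at 490, 410, 428 and 449 CPM in pals-17(*). Both genes were tight within each strain and wide apart between them. gpd-2 fell by 1.52 on the log2 scale (SE 0.069, adjusted p = 2.48e-08), a 2.87-fold fall. Its log2 fold change was -0.92 with read totals and -0.61 after quantile normalization. gpd-3 fell by 0.92 (SE 0.065, adjusted p = 4.73e-07), a 1.89-fold fall. For gpd-3 these values were -0.32 with read totals and -0.0041 after quantile normalization (adjusted p = 0.949), which ends the call. The order of the neighbours turned: gpd-2 had 1.09 to 1.18 reads for each read of gpd-3 in the 4 N2 libraries, and 0.731 to 0.762 in the 4 mutant libraries. gpd-3 held 46.9 ± 0.852% of their joint reads in N2 and 57.2 ± 0.510% in pals-17(*).

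The other GAPDH pair moved the opposite way. gpd-1 (chromosome II, 10394129 to 10395349, forward strand) was read at 13.97, 9.56, 12.2 and 8.58 CPM in N2 and at 110, 96.2, 127 and 138 CPM in pals-17(*). gpd-4 (chromosome II, 10171268 to 10172498, forward strand) was read at 9.27, 7.57, 6.65 and 3.13 CPM in N2 and at 58.2, 52.7, 69.2 and 79.9 CPM in pals-17(*). Replicate 4 was the lowest N2 library and the highest mutant library for both genes. gpd-1 rose by 3.42 ± 0.165 on the log2 scale (SE; adjusted p = 3.6e-08) and gpd-4 by 3.37 ± 0.295 (adjusted p = 2.22e-06). gpd-1 went from rank 7703 to rank 1304 among all genes by mean log2 value, and gpd-4 from rank 8990 to rank 2567.

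The 4 GAPDH genes differ little in exon length, and per kilobase the order of levels was gpd-2, gpd-3, gpd-1 and gpd-4 in N2, at 825, 725, 9.89 and 5.89 CPM per kb. In pals-17(*) it was gpd-3, gpd-2, gpd-1 and gpd-4, at 385, 288, 105 and 57.5 CPM per kb. The pair on chromosome X therefore remained the more abundant in every library, although its lead shrank. It had 77.2, 107, 94.4 and 149 reads for each read of gpd-1 and gpd-4 in N2, and 5.14, 4.85, 3.77 and 3.59 in pals-17(*). As a share, gpd-1 and gpd-4 held 0.669 to 1.28% of the GAPDH reads in N2 and 16.3 to 21.8% in pals-17(*). Summed over the 4 genes, GAPDH reads were 0.147 ± 0.00426% of all reads in N2 and 0.118 ± 0.00647% in the mutants. With the deposited scaling the summed CPM was 1806 ± 41.6 in N2 and 959 ± 70.1 in the mutants, a wider difference (SD, n = 4).

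The genes within each GAPDH pair are close copies, so reads could be split between them in counting, and the pair sums are the safer values. With the reads of each pair summed before the fit, gpd-1 plus gpd-4 rose by 3.39 and gpd-2 plus gpd-3 fell by 1.21 on the log2 scale. gpd-4 held 26.7 to 44.2% of the reads of its pair in N2 and 34.7 to 36.7% in pals-17(*), overlapping ranges. The exons of gpd-2 also share 22 bases with those of mai-1, a gene on the same strand.

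**Figure D2:**
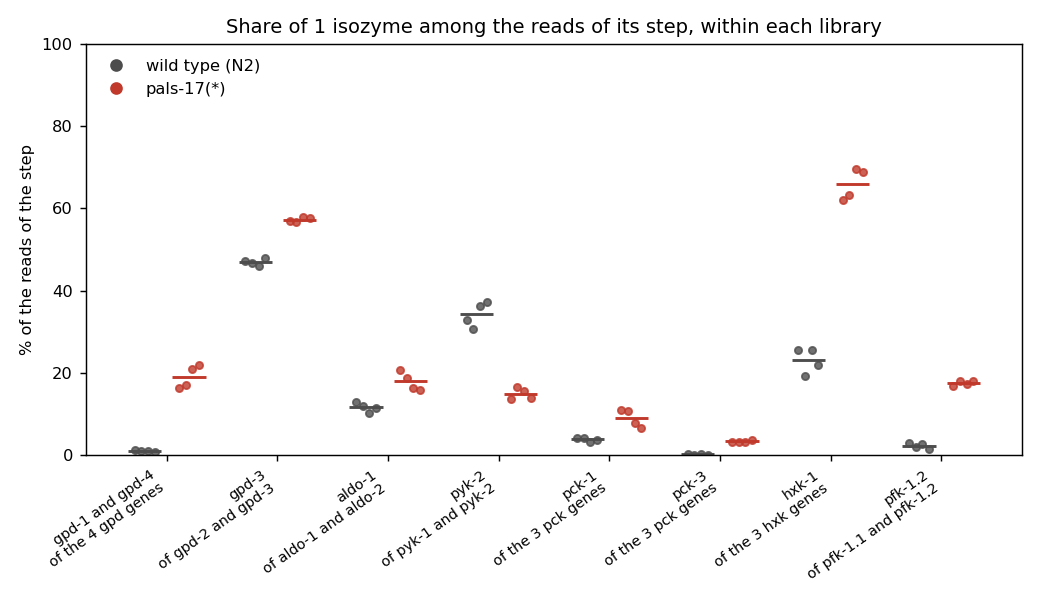
Percent of the reads of an enzymatic step that came from the named gene or genes, in each N2 (grey) and pals-17(*) (red) library, with bars at the means. gpd-1 and gpd-4 hold 0.669 to 1.28% of GAPDH reads in N2 and 16.3 to 21.8% in the mutants, and in all 8 shares the strains are apart.

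Enolase and pyruvate kinase take the last steps to pyruvate. enol-1 (chromosome II, 8930997 to 8933799, forward strand), the gene for enolase, was read at 1174, 1179, 1138 and 1071 CPM in N2 and at 575, 499, 510 and 543 CPM in pals-17(*). All mutant libraries were near one another and well below N2. It fell by 1.102 on the log2 scale (SE 0.065, adjusted p = 1.4e-07), which is 2.15-fold. The log2 fold change of enol-1 was -0.51 with read totals and -0.24 after quantile normalization. pyk-1 (chromosome I, 9168432 to 9177488, forward strand), for pyruvate kinase, which makes ATP, was read at 414, 464, 408 and 388 CPM in N2 and at 289, 258, 257 and 280 CPM in pals-17(*). Its groups were apart by a smaller step, with a log2 fold change of -0.63 ± 0.071 (adjusted p = 1.55e-05). Scaled to read totals, the fold change of pyk-1 was -0.03 (adjusted p = 0.687), and after quantile normalization it was 0.17 (adjusted p = 0.0398). The second pyruvate kinase gene, pyk-2, was at 217 CPM in N2 and at 47.1 CPM in pals-17(*), a larger fall than that of pyk-1 (-2.20 ± 0.068, adjusted p = 2.76e-09). pyk-1 had 1.70 to 2.26 reads for each read of pyk-2 in N2 and 5.09 to 6.36 in pals-17(*). These ratios are not corrected for exon length, which is 3940 bases in pyk-1 and 1727 in pyk-2. Per kilobase, pyk-2 was the higher gene in N2, at 125 against 106 CPM per kb. In pals-17(*) pyk-1 was the higher, at 68.7 against 27.3 CPM per kb. The exons of pyk-2 overlap 204 bases of ZK593.11 on the other strand, and how strand was used in counting is not given in the sources used here.

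Lactate dehydrogenase turns pyruvate into lactate and returns NAD to glycolysis. ldh-1 (chromosome II, 11724204 to 11726533, forward strand) showed the smallest difference of the 10 genes. It was read at 135, 133, 123 and 129 CPM in N2 and at 118, 108, 106 and 101 CPM in pals-17(*). The highest mutant library was only just under the lowest N2 library. The log2 fold change was -0.27 ± 0.064 (adjusted p = 0.00301). This direction turned with the scaling, to 0.33 with read totals (adjusted p = 0.000857) and to 0.18 after quantile normalization (adjusted p = 0.019).

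Phosphoenolpyruvate carboxykinase makes phosphoenolpyruvate from oxaloacetate, the step that commits carbon to gluconeogenesis. pck-2 (chromosome I, 7866136 to 7872100, forward strand) was the highest of the 10 genes in CPM. By mean log2 value it ranked 74 among all genes in N2 and 121 in pals-17(*). Per kilobase of exon it stood at 684 CPM per kb in N2 and 272 in pals-17(*). In both strains that was below aldo-2, gpd-2, gpd-3 and enol-1. It was read at 2252, 2187, 2405 and 2238 CPM in N2 and at 917, 883, 920 and 884 CPM in pals-17(*). The 4 mutant libraries were close to one another and far below every N2 library. pck-2 fell by 1.33 on the log2 scale (SE 0.058, adjusted p = 1.94e-08), a 2.52-fold fall, and from 0.185 to 0.111% of all reads. Its log2 fold change was -0.74 with read totals and -0.45 after quantile normalization. Its paralogs did not follow it. pck-1 was read at 98.8, 94.3, 80.9 and 83.8 CPM in N2 and at 116, 111, 80 and 65.5 CPM in pals-17(*). The mutant libraries of pck-1 lay on both sides of N2, with a log2 fold change of 0.02 (95% interval -0.36 to 0.41, adjusted p = 0.901). This value depended on the scaling. It was 0.62 with read totals (adjusted p = 0.00727, limma), 0.36 after quantile normalization and -0.25 with equal medians. pck-3 rose from 2.84 to 33.7 CPM, by 3.74 ± 0.362 on the log2 scale (adjusted p = 4.63e-06). pck-2 nevertheless held 96.1 ± 0.433% of the reads of the 3 genes in N2 and 87.7 ± 1.99% in pals-17(*).

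The rest of the route was described by 12 further glycolysis genes and 5 further gluconeogenesis genes, listed with earlier results of these data known. Of the 12, 3 rose and 9 fell, beside 42.5% and 41.2% of all genes. Their median was -0.87 on the log2 scale, beside -0.77 for the 10 genes above and 0.0041 for all genes. Among genes with a mean log2 value above 6, 68.8% were lower and the median was -0.62. Of the 5, 1 rose, 3 fell and 1 did not pass the test. At the entry of glucose, the hexokinase gene hxk-1 rose from 39.5 to 139 CPM (1.83 ± 0.131, adjusted p = 4.88e-07), while hxk-2 (-0.86) and hxk-3 (-0.88) fell. hxk-1 accordingly held 23.0 ± 3.03% of hexokinase reads in N2 and 65.9 ± 3.79% in pals-17(*). Phosphofructokinase, the main control step of glycolysis, showed a like pattern at a lower level: pfk-1.2 rose from 2.74 to 21.1 CPM (3.00 ± 0.235, adjusted p = 9.76e-07), and pfk-1.1 had a log2 fold change of -0.26 (adjusted p = 0.0132) with overlapping groups and a direction that turned to 0.34 with read totals. The single genes of the middle steps all fell. They were gpi-1 for glucose-6-phosphate isomerase (-0.88), tpi-1 for triosephosphate isomerase (-1.07), pgk-1 for phosphoglycerate kinase (-1.36) and ipgm-1 for phosphoglycerate mutase (-0.95), and they fell under each of the 5 scalings used. On the way back to sugar, fbp-1 for fructose-1,6-bisphosphatase fell by 0.86, pyc-1 for pyruvate carboxylase by 1.34 from 1174 to 465 CPM, and icl-1, the enzyme of the glyoxylate cycle, by 0.85. After quantile normalization icl-1 stood at 0.07.

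**Figure D3:**
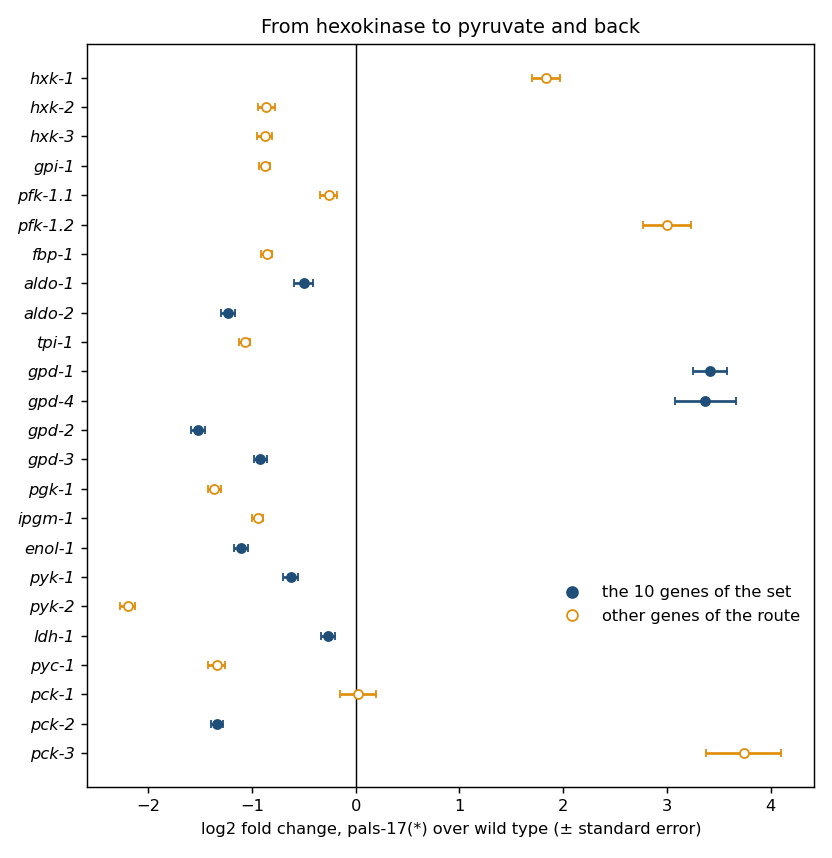
Log2 fold change of pals-17(*) over N2 with its standard error, for 24 genes from hexokinase to pyruvate and phosphoenolpyruvate carboxykinase. Filled points are the 10 genes and open points other genes of the route. hxk-1, pfk-1.2, gpd-1, gpd-4 and pck-3 lie between 1.83 and 3.74, pck-1 lies at 0.02, and the other 18 genes lie below 0 with the deposited scaling.

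Markers of stages and tissues also differed between the strains. For comparison, 42.5% of all genes were higher and 41.2% lower in pals-17(*). Among genes with a mean log2 value above 6 these shares were 17.6% and 68.8%. All 12 markers of oocytes and early embryos were higher in pals-17(*), by a median of 5.996 on the log2 scale. Their mean log2 value was 3.10, 2.09, 2.43 and 0.47 in N2 replicates 1 to 4 and 7.81, 7.68, 8.09 and 8.11 in the mutants. gpd-1 ordered the 4 libraries of each strain in the same way as this list did, and gpd-4 did so in the mutants. All 8 sperm markers and all 10 germline markers were also higher, with ranges of 0.43 to 1.61 against 4.44 to 4.56 and of 2.41 to 4.38 against 6.95 to 7.04. In N2, gpd-4 had the order of the germline list, which stood at 4.38, 3.92, 3.69 and 2.41 in replicates 1 to 4. The molting cuticle list had that N2 order too, at 8.88, 8.77, 8.65 and 8.56. In the mutants the germline list stood at 7.04, 6.97, 6.95 and 6.96, an order that gpd-4 did not have. These matches of order were found by looking across the lists and were not tested. All 10 intestine markers and all 10 markers of the molting cuticle were lower, from 9.55 to 9.73 in N2 to 7.14 to 7.28, and from 8.56 to 8.88 to 6.07 to 6.38. Of 11 body wall muscle markers 7 were lower and 4 did not pass the test, with 9.44 to 9.80 in N2 and 8.84 to 9.42 in the mutants. That count was near the 68.8% of lower genes among those with a mean log2 value above 6. Neuron markers stood at 5.91 to 5.96 and 5.52 to 5.68, with 6 of 10 lower and 4 that did not pass. Of 6 pharynx markers listed, 5 were among the genes measured. All 5 were higher, with 1.51 to 2.85 and 3.74 to 4.88, but only 2 of them had no overlap between the strains. Replicate 4 was the lowest N2 library for every list except those of intestine and neurons. The muscle and neuron lists had median log2 fold changes of -0.56 and -0.31, less than the 0.60 by which scaling to read totals moves the median of all genes. The highest genes of these lists were cpg-2 (6.21), gsp-3 (3.85), glh-1 (2.43), asp-1 (-2.01), sqt-3 (-2.68), unc-54 (-0.84), egl-21 (-0.80) and myo-1 (1.497), with log2 fold changes in parentheses. The part of these shifts in the values of the 10 genes was not tested.

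**Figure D4:**
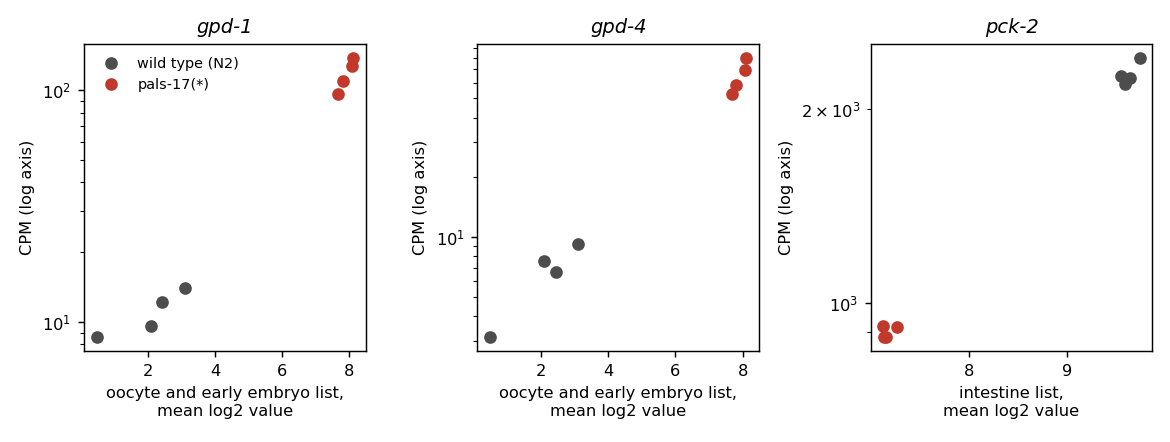
CPM (log axis) of gpd-1 and gpd-4 against the mean log2 value of 12 oocyte and early embryo markers, and of pck-2 against that of 10 intestine markers, 1 point per library, N2 grey and pals-17(*) red. The strains form separate clusters, and the N2 library with the lowest oocyte value, 0.47, has the lowest gpd-1 and gpd-4. That library is also the lowest of N2 for the sperm, germline, pharynx, body wall muscle and molting cuticle lists.

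Because the ratio of scaled size to read total differs by strain, the 10 genes were also read under 4 other scalings. gpd-1 and gpd-4 rose, and gpd-2, enol-1, aldo-2 and pck-2 fell, under the deposited scaling and under read totals, equal medians, quantile normalization and equal snb-1, a synaptic vesicle gene at 125 ± 1.37 CPM in N2 and 120 ± 4.71 CPM in pals-17(*). None of the 4 that fell did so by more than 1 on the log2 scale with read totals or after quantile normalization. gpd-3 kept its call except after quantile normalization. The direction of pyk-1, aldo-1 and ldh-1 turned under at least 1 of these scalings. Read totals moved the median of all genes up by 0.60, equal medians moved it down by 0.28 and quantile normalization down by 0.12.

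**Figure D5:**
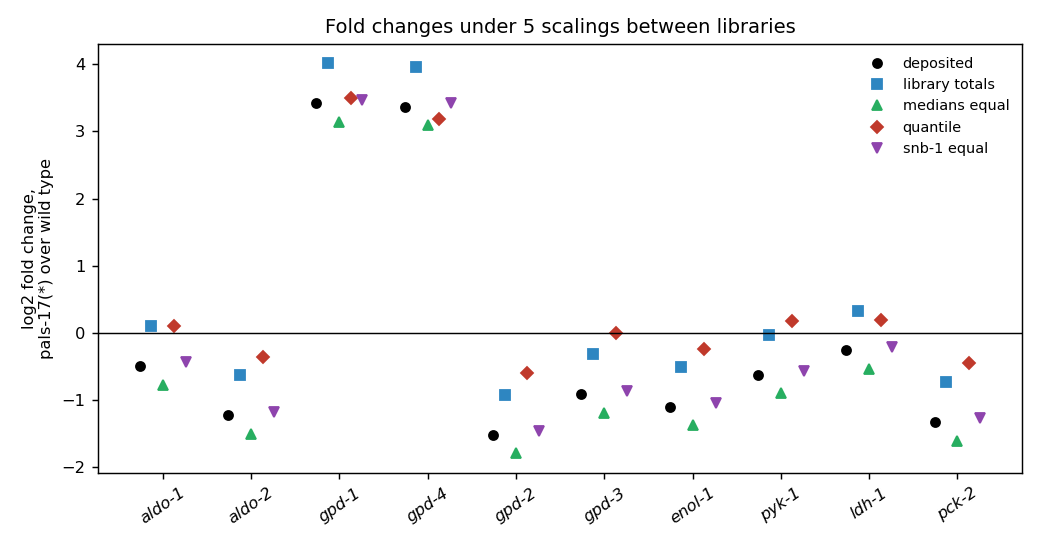
Log2 fold change of pals-17(*) over N2 for the 10 genes under the deposited scaling and 4 others. gpd-1 and gpd-4 stay above 3 and gpd-2, enol-1, aldo-2 and pck-2 stay below 0 in all 5, whereas aldo-1, pyk-1 and ldh-1 lie on both sides of 0.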

How the data were processed

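Total RNA of whole animals was prepared with a stranded mRNA kit. Paired-end reads were mapped by the authors to the WS235 genome with Rsubread. They removed genes with low expression and ran limma-voom in Galaxy, and the submitters' processing notes name featureCounts and limma. The deposited table holds log2 values, 1 per gene and library. Low values rise in steps that fit whole reads, offset by 0.5 and divided by a library size that had been scaled (CPM). The method of scaling is not given in the sources used here. Read numbers were solved from these steps, with 100% of them less than 0.01 away from an integer. A row without a gene name (0.00417% of reads) was left out, leaving 14541 genes. There were 0 per-sample columns left unused.

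The log2 values were fitted with limma 3.58.1 in R 4.3.3 (equal weights, trended prior variance, 2-sided, Benjamini-Hochberg over all genes, threshold 0.05). Single genes were also tested by an exact permutation test that enumerated all 70 relabellings in Python 3.11.15. A single read is worth 0.0522 to 0.0681 CPM in N2 and 0.0362 to 0.0446 CPM in pals-17(*). The p-values measure the spread between these replicate libraries. Coordinates and exon lengths were looked up in the WBcel235 annotation (Ensembl release 115), where 14531 identifiers were found. Named genes are the 10 members, the other steps of the route with its paralogs, in each wider list the 2 genes with the largest called change, the highest gene of each marker list, pals-17 and snb-1. Members, lists and tests were chosen with earlier results of these data known. The fit was tested on simulated reads with large known changes, up and down alike, in a small part of the genes. The library scaling was given to that simulation, so it could not test the choice of scaling. Alternatives were voom weights, other prior variances, a replicate block, added CPM, filters on low values, 4 scalings, summed GAPDH copies and each library left out.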

Additional observations from a re-analysis of the deposited data

Results flagged for a closer look

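fbp-1, the gluconeogenic fructose-1,6-bisphosphatase, had 1 mutant library apart from the others. It was read at 114.98, 119.7, 115.1 and 114.3 CPM in pals-17(*) replicates 1 to 4. On the log2 scale the gap from replicate 2 to its nearest neighbour took 0.8516 of the range of the group, above Dixon's 95% critical value for 4 samples. It was 1 of 66 groups tested, and chance alone marks about 1 group in 20.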

How the results depend on the processing

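With libraries scaled to read totals, 3 of the 10 genes were higher and 5 lower, beside 60.1% and 23.3% of all genes. After quantile normalization 4 of the 10 were higher and 4 lower, beside 39.1% and 45.5% of all genes. The turned directions were aldo-1 at 0.10 with read totals and 0.10 after quantile normalization, ldh-1 at 0.33 and 0.18, and pyk-1 at 0.17 after quantile normalization. Of all called genes 50.8% were higher and 49.2% lower with the deposited scaling, against 72.1% and 27.9% with read totals, and which scaling is nearer to RNA per animal was not tested. Leaving out each library in turn gave 2 higher and 8 lower genes every time, with gpd-4 between 3.04 (without N2 replicate 4) and 3.56. With the replicate number as a block, 2 genes were higher and 8 lower, and no call changed. Deviations of same-numbered libraries correlated by -0.017 to 0.073 over 4 pairs, so the numbers were not taken to pair the samples. Voom weights, other prior variances, added CPM and filters on low values changed no call of the 10 genes.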

Other observations

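Neighbouring routes of carbohydrate metabolism were read in the same way. For comparison, 42.5% of all genes were higher and 41.2% lower in pals-17(*) with the deposited scaling. Among genes with a mean log2 value above 6 these shares were 17.6% and 68.8%. All 7 pentose phosphate genes, which make NADPH and ribose, were lower in pals-17(*), with a median log2 fold change of -1.40 and the largest falls in tkt-1 for transketolase (-1.96) and T25B9.9 for 6-phosphogluconate dehydrogenase (-1.84). Under all 5 scalings 6 of the 7 stayed lower and 1 turned. Of 25 genes of pyruvate dehydrogenase and the citric acid cycle, 22 were lower, 1 was higher and 2 did not pass the test, with a median of -0.91. The direction of 8 of these 25 genes turned under another scaling. The largest falls were those of the succinyl-CoA ligase subunit genes sucl-1 (-1.67) and suca-1 (-1.58). Under all 5 scalings 13 of the 25 were lower with an adjusted p-value under 0.05. The rest kept their direction but lost the call under a scaling.

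Of 13 trehalose and glycogen genes, 3 were higher, 9 lower and 1 did not pass, beside 42.5% higher and 41.2% lower of all genes. The direction of 3 of the 13 turned under another scaling. gyg-2, a glycogenin gene, which primes glycogen, was read at 5.95, 3.76, 5.10 and 2.45 CPM in N2 and at 108, 108, 130 and 130 CPM in the mutants, a log2 fold change of 4.85 ± 0.237 (adjusted p = 3.92e-08, limma). Its lowest N2 library was replicate 4, which was also the lowest for gpd-1 and gpd-4. tre-4, a trehalase gene, fell by 2.18.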
